A study of Mus musculus with 9 samples.

Results

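Genes of prostaglandin and leukotriene synthesis and of prostanoid reception were described in RNA-seq of RAW264.7, a macrophage line derived from a mouse leukemia. The set was a named list of 10 genes, and its rows were found by the GENCODE M21 symbol of each Ensembl identifier. All 10 were present among the 28137 identifiers, of which 27533 carried a name. It holds Pla2g4a, Ptgs1, Ptgs2, Ptges, Ptges2, Alox5, Alox5ap, Ptgir, Ptger2 and Ptger4.

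Eicosanoids are signaling lipids made from arachidonic acid. Cytosolic phospholipase A2, the product of Pla2g4a, frees arachidonic acid from membrane phospholipids. The cyclooxygenases encoded by Ptgs1 and Ptgs2 turn it into prostaglandin H, which terminal synthases such as those of Ptges and Ptges2 turn into prostaglandin E. In the other branch the arachidonate lipoxygenase of Alox5, helped by the membrane protein FLAP of Alox5ap, begins leukotriene synthesis. Macrophages stimulated with lipopolysaccharide (LPS) are a known source of prostaglandin E, and Ptgs2 is a classic inducible gene of these cells. The products act on G protein-coupled receptors of the cell surface, of which Ptgir binds prostacyclin and Ptger2 and Ptger4 bind prostaglandin E, and all 3 of these receptors raise cAMP.

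Promoters of Ptgs2, Ptgs1, Alox5 and Ptgir are shown because they set the inducible cyclooxygenase beside the constitutive one, and because Ptgs2, Alox5 and Ptgir were higher in the RAB6A siRNA group below. RefSeq promoters on GRCm38.p6, from 250 bases before to 50 after the start, were held for 9 of the 10 genes, and none was held for Alox5ap. The 250 bases before the start are printed on the strand of the gene, and capitals mark matches to any of 8 motifs on either strand. The motifs were the NF-kB consensus, the cAMP response element (CRE) core TGACG, the C/EBP consensus TTNNGNAA, the TATA box TATAAA, the E-box CACGTG, the GAS element TTCNNNGAA, the ISRE core GAAANNGAAA and the GC box GGGCGG.
Ptgs2, chr1:150099781-150100030, + strand: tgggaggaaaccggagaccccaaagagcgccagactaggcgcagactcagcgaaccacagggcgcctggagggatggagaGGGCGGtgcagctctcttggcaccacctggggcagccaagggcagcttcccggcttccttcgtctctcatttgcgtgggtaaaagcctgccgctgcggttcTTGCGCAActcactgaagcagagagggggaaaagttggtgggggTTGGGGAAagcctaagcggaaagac
Ptgs1, chr2:36230176-36230425, + strand: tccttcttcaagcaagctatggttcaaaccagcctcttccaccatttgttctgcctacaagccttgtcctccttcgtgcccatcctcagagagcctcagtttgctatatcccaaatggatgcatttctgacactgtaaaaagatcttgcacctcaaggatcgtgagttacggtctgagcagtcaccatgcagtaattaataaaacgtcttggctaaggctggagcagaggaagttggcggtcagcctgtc
Alox5, chr6:116461179-116461428, - strand: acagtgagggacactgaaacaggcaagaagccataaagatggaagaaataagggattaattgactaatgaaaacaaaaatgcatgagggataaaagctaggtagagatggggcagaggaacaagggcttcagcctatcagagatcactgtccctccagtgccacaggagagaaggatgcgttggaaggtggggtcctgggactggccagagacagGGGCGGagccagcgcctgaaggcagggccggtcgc
Ptgir, chr7:16906240-16906489, + strand: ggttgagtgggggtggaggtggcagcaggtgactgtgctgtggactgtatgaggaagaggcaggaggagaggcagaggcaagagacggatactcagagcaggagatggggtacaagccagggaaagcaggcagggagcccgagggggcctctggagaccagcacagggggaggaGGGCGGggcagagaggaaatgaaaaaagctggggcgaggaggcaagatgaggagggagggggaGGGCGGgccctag

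In the Ptgs2 promoter the C/EBP consensus matched at -69 to -62 (TTGCGCAA) and at -25 to -18 (TTGGGGAA), and the GC box matched at -170 to -165. Position -1 is the base before the RefSeq start, and where transcription begins in these cells was not examined. A CRE core and an E-box lay just after the start, at 14 to 18 and 17 to 22, so that their letters overlap. They are the capitals of the 30 bases from chr1:150100031-150100060, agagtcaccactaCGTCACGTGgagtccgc. Ptgs2 was the only member whose window held a CRE core, which 20.8% of 32851 promoters of the same length held. The C/EBP consensus was found in 40.7% of them, the E-box in 7.15%, the GC box in 35.7%, the TATA box in 13.6%, the GAS element in 8.3%, the ISRE core in 3.44% and the NF-kB consensus in 4.51%. The window of Ptgs1 matched none of the 8 motifs. Alox5 and Ptgir matched the GC box alone, at 1 and 2 places. So did Ptger4, at 4 places, and Ptges matched it at 2 places. Neither Ptger4 nor Ptges was called in the RAB6A group against NC below. No member window matched the NF-kB, GAS or ISRE motif, which says only that these letters were not found in 300 bases.

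The messages also differ in AU-rich pentamers of the 3′ untranslated region (UTR), a letter pattern common in short-lived inflammatory mRNAs. The 3′ UTR of Ptgs2 held 14 copies of ATTTA in 2445 bases. Only 2.2% of 16696 coding genes held as many, against a median of 1 copy. A raw count grows with length, and the median 3′ UTR was 885 bases. Per kilobase, Ptgs2 held 5.73 copies, where the 3′ UTRs of coding genes pooled held 1.82. Pla2g4a held 4 copies in 443 bases, Ptger2 held 6 in 1825 and Ptger4 held 5 in 1233. At least as many copies were held by 24.5%, 14.3% and 18.4% of coding genes, respectively. Per kilobase these members held 9.03, 3.29 and 4.06 copies, so Pla2g4a was denser than Ptgs2. Alox5ap (4.77) and Alox5 (3.12) also lay above the pooled value, and Ptges2 (1.16) and Ptgir (1.12) lay below it. Ptgs1 and Ptges held 0, as did 37.0% of coding genes.

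The 9 libraries form 3 groups of 3, labeled NC siRNA (control), SFRP2 siRNA and RAB6A siRNA. Per the labels, all cells received 60 nM siRNA for 6 h and complete medium for 12 h, and 100 ng/ml LPS was then added to all, so no group is without LPS. The treatment label puts RNA extraction 24 h after LPS, whereas the titles of all 9 libraries carry 6 h, and which time the values belong to could not be settled. The paper's methods also name a lower siRNA dose, a longer wait after transfection and interferon gamma beside LPS, which the labels do not name. All levels below therefore hold for a time and stimulus that are not certain. The study asked whether SFRP2, a secreted modulator of Wnt signaling, affects macrophages in diabetic wounds. The RAB6A siRNA group, against a Golgi transport GTPase, is not described in its paper. The SFRP2 libraries are numbered like the 3 siRNAs of the study, and whether each received a different siRNA is not stated. All libraries come from 1 cell line, the labels do not say whether the replicates were separate cultures. The paper states in general terms that its data represent independent experiments, without tying this to these libraries. If the replicates were technical, p-values measure only that spread.

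Values were given as FPKM, counts scaled to exon length and library size, which allows levels of different genes to be set side by side. Library sizes recovered from the FPKM steps were 32758724 to 47149252 reads. Of recovered counts from 1 to 19, 68.7% to 73.7% were even in each library. That both mates of a pair were counted is inferred from this, and if so, read counts below stand for fewer fragments. The targeted Sfrp2 was at 2 to 4 reads in every library, so it could not check the labels of its group. Rab6a was 25.7 ± 1.48 FPKM in the NC group, 27.0 ± 1.45 in the SFRP2 group and 20.7 ± 0.445 in the RAB6A group (SD, n = 3), without overlap between the last and the others. Macrophage markers were present, with 9 of 10 at a mean of at least 0.5 FPKM and summed levels of 4580 to 5050 FPKM in the NC group, 4050 to 4380 in the SFRP2 group and 3980 to 4140 in the RAB6A group. The 5 LPS response markers (Nos2, Tnf, Il1b, Il6 and Acod1) summed to 3860 to 4100, 3640 to 3780 and 1740 to 1750 FPKM, respectively. The highest single value of these markers in any library was 2530 FPKM, so a sum can be led by 1 gene. Summed markers of fibroblasts, epithelium, endothelium, lymphocytes, mast cells, neutrophils and platelets did not exceed 3.32 FPKM for any list in any library.

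In NC cells the 10 genes spanned a wide range, and Ptgs2 stood far above the rest at 491.7 ± 22.4 FPKM (SD, n = 3). Ptgs2 ranked between 62 and 67 among all genes of the NC libraries and took 0.225% of their reads. Alox5ap followed at 50.01 ± 5.79 FPKM, 9.83-fold lower in the mean, then Pla2g4a at 19.7 ± 0.837 and Alox5 at 8.03 ± 0.640. Ptges (5.94 ± 0.678) and Ptgir (4.87 ± 0.455) overlapped between libraries, so their order is open. Below them came Ptgs1 at 2.69 ± 0.541, Ptges2 at 1.84 ± 0.0283, Ptger4 at 0.702 ± 0.151 and Ptger2 at 0.173 ± 0.0163 FPKM. Every other pair of neighbors in this order was free of overlap.

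**Figure D1:**
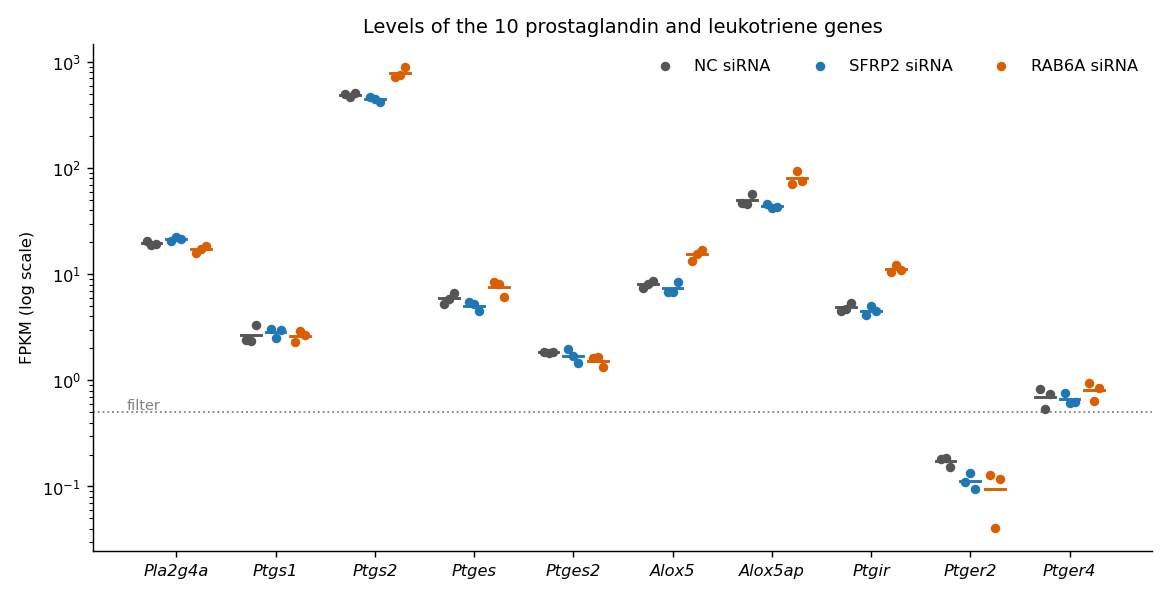
FPKM of each gene on a log axis, with 1 point per library, a line at the mean of the 3 libraries of a group, and a dotted line at the filter of 0.5 FPKM. Ptgs2 lies highest in all groups and Ptger2 lowest, and the RAB6A points of Ptgs2, Alox5, Alox5ap and Ptgir lie above all others of their gene.

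Differences were tested with limma on log2(FPKM + 0.1) for genes whose mean over the 6 libraries compared was at least 0.5 FPKM. P-values were adjusted by Benjamini-Hochberg over all genes tested, and fold changes below are on that scale. A gene was called at an adjusted p under 0.05, and was a DEG if its absolute log2 fold change was also over 1. Of the 10 members 9 passed the filter in each comparison, and Ptger2 did not.

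Against NC, the RAB6A siRNA group had higher Ptgir, Alox5, Ptgs2 and Alox5ap and lower Pla2g4a. These 5 of 9 tested members were called, at a background of 74.1% of 12712 genes. By direction, 4 of 9 were called higher, where 37.6% of all genes were, and 1 was called lower, where 36.5% were. Ptgir alone was a DEG, and 30.1% of genes were. The members' share was thus not above that of all genes. Their median log2 fold change was 0.33, beside 0.03 over all genes tested. In bulk RNA, fewer cells of a state and less RNA per cell cannot be told apart. The summed LPS response markers were lower in this group, which does not show that each of them was. Their part in these differences was not tested.

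**Figure D2:**
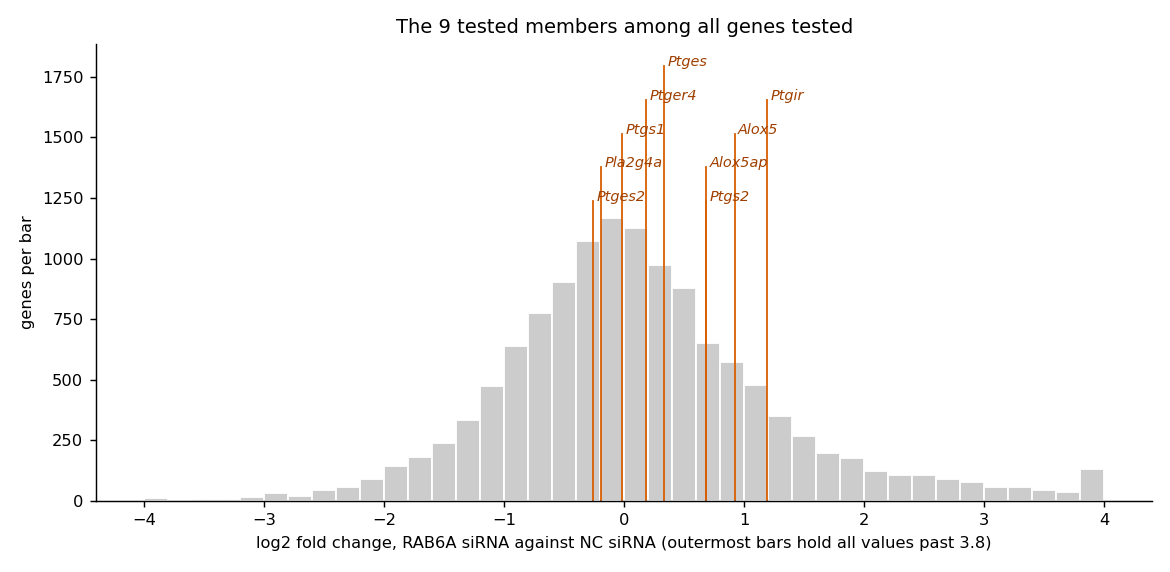
Number of genes by log2 fold change of the RAB6A siRNA group against NC in bars 0.2 wide, with the 9 tested members as lines at their own values. The members lie between -0.26 (Ptges2) and 1.19 (Ptgir), inside the bulk of the 12712 genes.

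At the first step, Pla2g4a was 20.59, 18.98 and 19.38 FPKM in the NC libraries, 20.76, 22.54 and 21.51 in the SFRP2 libraries and 15.83, 17.35 and 18.58 in the RAB6A libraries. The RAB6A values were the lowest and the SFRP2 values the highest, with no overlap between any pair of groups. The gene fell by 0.19 on the log2 scale in the RAB6A group against NC (SE 0.07, adjusted p = 0.048 from limma). This call was marginal. It was lost in the voom fit of the recovered reads, in the replicate block and without 5 of the 6 libraries in turn, and after correction for GC content and length the sign turned (0.12).

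Of the cyclooxygenases, Ptgs2 was 494.0, 468.1 and 512.8 FPKM in the NC libraries, 466.1, 450.3 and 419.9 in the SFRP2 libraries and 720.4, 751.4 and 896.3 in the RAB6A libraries. Each RAB6A library lay above all others, and its reads rose to 0.362% of the library. The fold change against NC was 1.6 (log2 0.68, SE 0.1, adjusted p = 0.00042 from limma). A larger absolute change was seen in 47.2% of all genes. Under quantile normalization the difference was 0.22 on the log2 scale and no longer passed (adjusted p = 0.12). Ptgs2 ranked between 62 and 67 in the NC libraries and between 44 and 59 in the RAB6A libraries. That normalization keeps the ranks within a library, so they are not a separate check of it.

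Ptgs1, the constitutive cyclooxygenase, was 2.407, 2.348 and 3.313 FPKM in the NC libraries and 2.274, 2.933 and 2.680 in the RAB6A libraries. The groups overlapped and the log2 fold change was -0.02 with a 95% interval from -0.39 to 0.34. Its sign depended on the fit (0.03 with voom, 0.27 with GC correction). The FPKM ratio of Ptgs2 to Ptgs1 was 186 ± 27.6 in NC cells and 302 ± 41.0 in RAB6A cells (SD, n = 3), without overlap (p = 0.1, exact two-sided permutation test, the smallest p that 3 against 3 can give).

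Ptges, the inducible microsomal prostaglandin E synthase, was 5.288, 5.881 and 6.642 FPKM in NC and 8.385, 8.095 and 6.135 in RAB6A libraries. RAB6A replicate 3 lay within the NC range. The log2 fold change of 0.33 (SE 0.14) missed the threshold in limma (adjusted p = 0.058), and without that replicate it was 0.47 (adjusted p = 0.0061). It also passed without NC replicate 3, with all 9 libraries in 1 fit (adjusted p = 0.047), with voom (adjusted p = 0.0058) and with GC correction (adjusted p = 0.0047).

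Ptges2, which encodes another, constitutive prostaglandin E synthase, went the other way. It was 1.867, 1.811 and 1.832 FPKM in NC and 1.616, 1.651 and 1.322 in RAB6A libraries, with no overlap. Its log2 fold change of -0.26 (SE 0.12) did not pass in limma (adjusted p = 0.086), but did with median-of-ratios scaling (adjusted p = 0.049) and quantile normalization (adjusted p = 0.0071). The ratio of Ptges to Ptges2 was 3.23 ± 0.397 in NC and 4.91 ± 0.274 in RAB6A cells, also without overlap (p = 0.1, exact two-sided permutation test).

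Both genes of the leukotriene branch rose. Alox5, the lipoxygenase, was 7.399, 8.006 and 8.679 FPKM in NC, 6.869, 6.815 and 8.482 in SFRP2 and 13.46, 15.52 and 17.06 in RAB6A libraries. All RAB6A libraries lay above all others, with a fold change against NC of 1.9 (log2 0.92, SE 0.1, adjusted p = 0.00011 from limma). After GC correction its log2 fold change was 1.14.

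Alox5ap was 47.07, 46.29 and 56.68 FPKM in NC, 46.16, 42.42 and 42.85 in SFRP2 and 70.90, 94.69 and 75.65 in RAB6A libraries. Again no RAB6A library overlapped the others, and the fold change against NC was 1.6 (log2 0.68, SE 0.12, adjusted p = 0.0017 from limma). Of its 1420 exon bases, 189 are shared with the antisense gene Gm19719, which was listed at 0.191 to 0.311 FPKM in NC and at 1.89 to 2.34 in RAB6A libraries. Whether the counting used strand is not given in the sources used here, and the share of this overlap in the difference was not tested. The ratio of Ptgs2 to Alox5 was 51.5 ± 2.71 in RAB6A and 61.4 ± 4.63 in NC cells, without overlap (p = 0.1, exact two-sided permutation test).

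Among the receptors, Ptgir had the largest change of the 9 tested members. It was 4.498, 4.727 and 5.376 FPKM in NC, 4.171, 4.983 and 4.489 in SFRP2 and 10.52, 12.30 and 10.9 in RAB6A libraries. Even the lowest RAB6A library was far above the highest NC library. The fold change was 2.29 (log2 1.19, SE 0.09, adjusted p = 1.9e-05 from limma). A larger absolute change was found in 23.9% of genes.

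Ptger4 was low and did not separate, at 0.831, 0.536 and 0.739 FPKM in NC and 0.952, 0.632 and 0.845 in RAB6A libraries. Its log2 fold change was 0.18 with a 95% interval from -0.37 to 0.73, and it was -0.26 under quantile normalization. Of its 6648 exon bases, 1015 overlap the opposite-strand pseudogene Gm15937 and 82 overlap Ttc33.

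Ptger2 rested on 8 to 45 reads per library. It was 0.180, 0.184 and 0.154 FPKM in NC, 0.109, 0.134 and 0.094 in SFRP2 and 0.127, 0.041 and 0.118 in RAB6A libraries. Both siRNA groups lay below NC without overlap (p = 0.1 each, exact two-sided permutation test). The ratio of Ptger4 to Ptger2 was 4.11 ± 1.04 in NC, 6.03 ± 1.27 in SFRP2 and 10.1 ± 4.73 in RAB6A cells, where 1 library of low Ptger2 gave 15.5 and the others gave 7.49 and 7.19.

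Across all 10 members, 7 had RAB6A and NC libraries that did not overlap. For the 9 tested members it was 6, at a background of 77.4% of all genes.

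**Figure D3:**
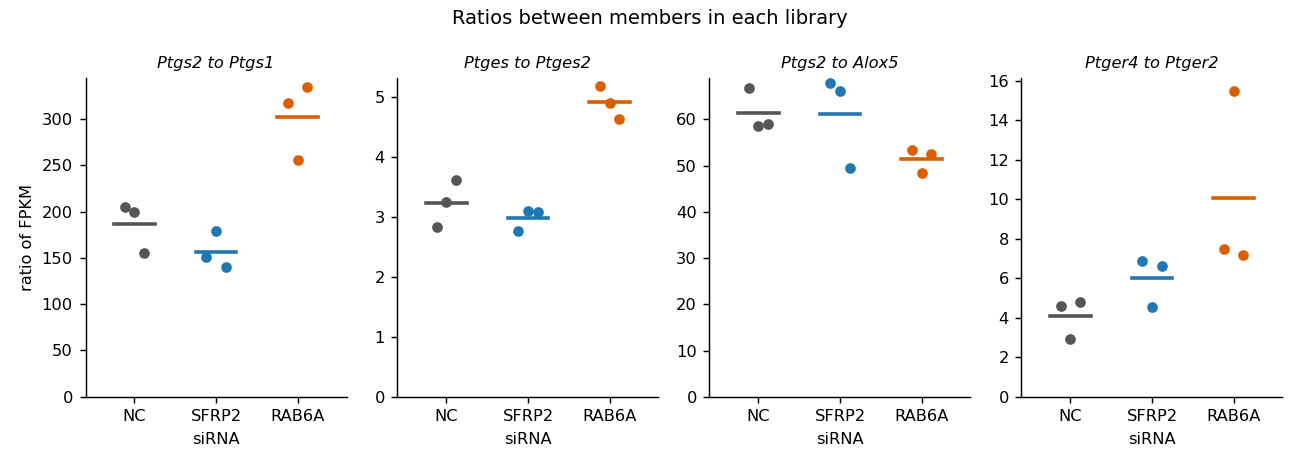
FPKM ratio of pairs of members in each library, on axes that start at 0, with points for libraries and lines for group means. The RAB6A points lie apart from the NC points in all 4 panels, above them except for Ptgs2 to Alox5.

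Against NC, the SFRP2 siRNA group showed no called member. The count was 0 of 9 at an adjusted p under 0.05 in limma, as it was for 0.0% of 12017 genes, and the smallest adjusted p was 0.252 among members and 0.14 among all genes. At an unadjusted p under 0.05 there were 2 members, beside 18.5% of all genes. With voom on the recovered reads 45 genes were called, 13 higher and 32 lower, and 0 of them were members. The paper, using a count model, reports DEGs in both directions for SFRP2 siRNA in RAW264.7 cells. Why the fits differ was not tested.

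The 2 members were Pla2g4a, with a log2 fold change of 0.14 (SE 0.05, unadjusted p = 0.039, adjusted p = 0.25 in limma), and Ptgs2, with -0.14 (SE 0.06, unadjusted p = 0.05, adjusted p = 0.27). The Ptgs2 mean of 445.5 ± 23.5 FPKM stood beside 491.7 ± 22.4 in NC cells. All SFRP2 libraries of Ptgs2 and of Alox5ap lay below all NC libraries, and those of Pla2g4a lay above. These 3 of 9 tested members without overlap compare with 24.7% of all genes, and Ptger2, under the filter, made it 4 of 10.

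Of the 9 log2 fold changes 7 were negative, with a median of -0.11 beside -0.01 over all genes. The widest 95% interval was that of Ptger4, from -0.58 to 0.46. Alox5 was at -0.12 (from -0.36 to 0.12), Ptgir at -0.1 (from -0.32 to 0.13), Ptges2 at -0.11 (from -0.4 to 0.18) and Ptgs1 at 0.1 (from -0.25 to 0.45). Ptges was at -0.23 (from -0.48 to 0.03) and Alox5ap at -0.19 (from -0.39 to 0.01). A doubling or halving lay outside the interval of each of the 9. The ratios of Ptgs2 to Ptgs1 (157 ± 20.2), Ptges to Ptges2 (2.98 ± 0.186) and Ptgs2 to Alox5 (61.2 ± 10.1) overlapped those of NC cells.

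The SFRP2 and RAB6A comparisons share the NC libraries, so the siRNA groups were also compared with each other. Here 6 of 9 members were called, at a background of 73.4% of 12764 genes. Pla2g4a was the 1 called higher in the SFRP2 group (35.8% of all genes), by 0.32 (SE 0.07, adjusted p = 0.0054 in limma). The 5 called lower (37.6% of all genes) were Ptgs2 at -0.82, Ptges at -0.56, Alox5 at -1.05, Alox5ap at -0.86 and Ptgir at -1.29, with adjusted p from 2e-05 to 0.0078. Ptges had no overlap between these groups, with 5.462, 5.234 and 4.481 FPKM in SFRP2 libraries. Under quantile normalization Ptgs2 was at -0.25 and missed the threshold (adjusted p = 0.094), and after GC correction the call of Pla2g4a was lost and its sign turned (-0.07, adjusted p = 0.35). Ptger4 was not called (-0.24, SE 0.22, adjusted p = 0.34) but passed after GC correction (-0.63, adjusted p = 0.029). Ptges2, at 0.14 (adjusted p = 0.41), passed under quantile normalization. The median of the members was -0.56, beside -0.03 over all genes.

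**Figure D4:**
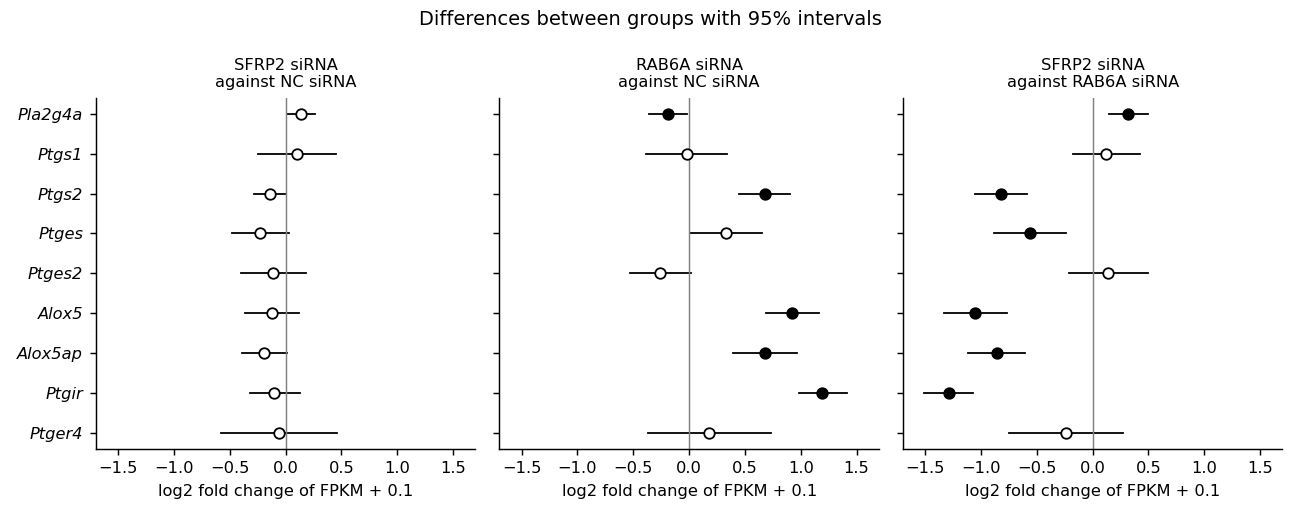
Log2 fold change of FPKM + 0.1 with its 95% interval from limma for the 9 members past the filter, with 1 panel per comparison. Filled points have an adjusted p under 0.05, which holds for none against NC in the SFRP2 group, 5 in the RAB6A group and 6 between the siRNA groups.

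Other genes of the pathway were taken from a written list of 66 symbols, of which 62 identifiers were in the table. Most were barely expressed. In RAB6A against NC cells 24 passed the filter, of which 11 were called higher, 7 lower and 6 were not called. Over all genes 37.6% were called higher and 36.5% lower, so these 18 of 24 lie near the background of 74.1%. The median log2 fold change was 0.17 beside 0.03 over all genes. In SFRP2 against NC cells 0 of 22 were called in limma and 4 had an unadjusted p under 0.05, as had 18.5% of all genes.

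Among genes that release arachidonate or cleave related lipids, Pla2g15, a lysosomal phospholipase, was higher in RAB6A than in NC cells at 8.31 ± 0.348 against 2.54 ± 0.380 FPKM (log2 1.68, adjusted p = 9.7e-06 in limma). Of the 5 tested in this section 3 were higher and 1 was lower. Among terminal prostanoid synthases and reductases 1 was higher and 3 were lower of 5. Over all genes 37.6% were called higher and 36.5% lower, and sections this small do not settle a direction. Ptges3, the cytosolic prostaglandin E synthase known also as the p23 co-chaperone, fell from 65.9 ± 4.71 to 31.0 ± 1.18 FPKM (log2 -1.08, adjusted p = 7.6e-06). It was the most abundant gene of the list after Cotl1, a coactosin-like protein that binds the Alox5 product, which was 98.28 ± 8.432 in NC and 87.88 ± 4.004 FPKM in RAB6A cells and was not called (adjusted p = 0.096). Of the 3 prostaglandin E synthase genes, Ptges3 was lower and the others were not called, with Ptges2 at -0.26 and Ptges at 0.33.

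In the leukotriene section 3 of 5 were higher and 0 lower, where 37.6% and 36.5% of all genes were. The same shares stand beside the receptor and breakdown counts below, and these sections are also too small to settle a direction. Ltc4s, the leukotriene C synthase, was 2.62 ± 0.366 FPKM in RAB6A and 1.22 ± 0.257 in NC cells (log2 1.05, adjusted p = 0.00088 in limma). Of 3 tested receptors of leukotrienes and lipoxins, Gpr17 was higher (1.72 ± 0.314 against 0.375 ± 0.0660 FPKM, log2 1.93, adjusted p = 9.3e-05). It did not exceed 0.43 FPKM in NC or 0.456 in SFRP2 libraries, so it passed the filter only through the RAB6A group. Cysltr1 was lower, and so was Fpr2, a formyl peptide and lipoxin receptor, at 0.177 ± 0.0638 against 2.33 ± 0.686 FPKM (log2 -3.12, adjusted p = 3.7e-05). Fpr2 passed the filter only through the NC group, as its RAB6A libraries were at 0.118 to 0.245 FPKM. Of the 6 tested genes of breakdown and transport 3 were higher, among them Cyp4f13 of a family that hydroxylates leukotrienes (7.38 ± 0.0957 against 2.29 ± 0.205 FPKM, log2 1.65, adjusted p = 3.1e-06), and 1 was lower.

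The 7 genes listed as prostanoid receptors outside the member set were Ptger1, Ptger3, Ptgdr, Ptgdr2, Ptgfr, Tbxa2r and Pparg, the last of which encodes a nuclear receptor. They did not pass the filter in any comparison, and each was under 0.5 FPKM in all 9 libraries. Ptgir was therefore the prostanoid receptor gene of highest FPKM in these libraries.

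Between the siRNA groups 25 genes of the list were tested, with 7 called higher and 10 lower in the SFRP2 group, where 35.8% and 37.6% of all genes were (73.4% together). There were 9 DEGs, at a background of 31.1% of genes, of which the 8 largest were Fpr2 (3.02), Pla2g15 (-1.96), Gpr17 (-1.9), Cyp4f13 (-1.73), Ltc4s (-1.33), Ptges3 (1.31), Pla2g2e (-1.3) and Mgst3 (-1.13), given as log2 fold changes. Fpr2 and Gpr17 passed the filter here only through the group where they were high.

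**Figure D5:**
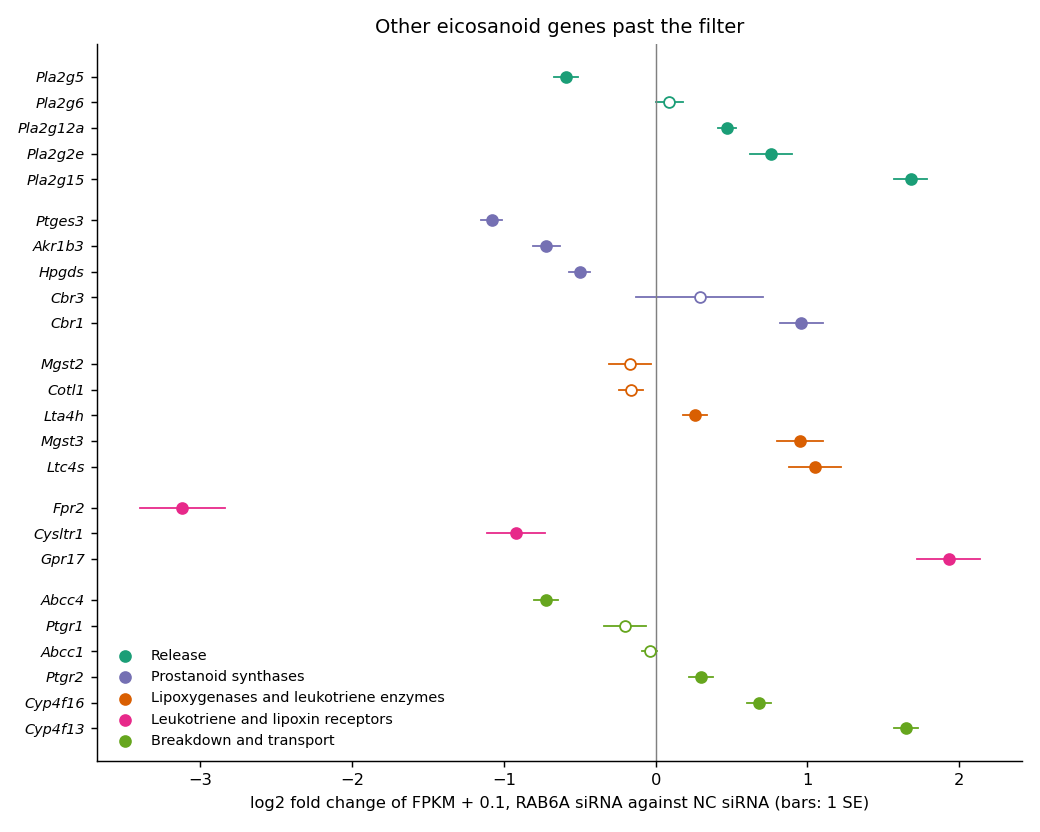
Log2 fold change of the RAB6A group against NC for the 24 other eicosanoid genes past the filter, grouped by role, with bars of 1 SE and filled points for an adjusted p under 0.05. Fpr2 and Ptges3 lie farthest to the left and Gpr17, Pla2g15 and Cyp4f13 farthest to the right.

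Since Ptgir, Ptger2 and Ptger4 signal through cAMP, a list of 32 symbols of this relay was read from the same fits, with 30 identifiers in the table. In RAB6A against NC cells 20 were tested, of which 6 were higher, 6 lower and 8 not called. These 12 of 20 compare with the 74.1% called over all genes, and the median log2 fold change was -0.03 beside 0.03 over all genes. Arrb1, which encodes a beta-arrestin that desensitizes receptors, was higher at 4.64 ± 0.217 against 1.89 ± 0.0367 FPKM (log2 1.25, adjusted p = 7.1e-06 in limma). Pde4d, a cAMP phosphodiesterase, was higher at 1.37 ± 0.0319 against 0.632 ± 0.0712 (log2 1.01, adjusted p = 0.00058). Prkar2a, a regulatory subunit of protein kinase A, was lower at 7.14 ± 0.282 against 16.3 ± 0.589 FPKM (log2 -1.18, adjusted p = 3.6e-06).

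The most abundant genes of this list were Arrb2, at 72.7 ± 3.16 in RAB6A and 66.2 ± 3.43 FPKM in NC cells (not called, adjusted p = 0.082), and Prkar1a, another regulatory subunit, which was lower (log2 -0.53, adjusted p = 0.00016). In SFRP2 against NC cells 0 of 20 were called in limma, and 6 had an unadjusted p under 0.05 (18.5% of all genes). Between the siRNA groups 6 of 20 were called higher and 8 lower in SFRP2 cells, beside 35.8% and 37.6% of all genes, and the DEGs were again Arrb1 (-1.28), Pde4d (-1.08) and Prkar2a (1.26).

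Genes of like pattern were ranked by the root mean square difference from a member in log2(FPKM + 0.1) relative to the NC mean over the 6 libraries that are not NC, among 12549 genes. The 3 nearest to Ptgs2 were Sfxn3 (0.0749), Exoc4 (0.0775) and Scd1 (0.0802), and 10 genes lay within 0.1. The 3 nearest to Alox5ap were Elp6 (0.0819), Rpl3 (0.083) and its pseudogene Rpl3-ps1 (0.0918), which shares sequence with Rpl3 so that their values are uncertain. Alox5ap lay at 0.174 from Ptgs2. Pla2g4a had 125 genes within 0.1 and Ptger4 had 0, with its nearest gene at 0.101. Spread between libraries enters this distance, and Ptger4 was low, so the 0 does not mark a distinct pattern.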

How the data were processed

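RNA-seq of 9 RAW264.7 libraries was used. The authors deposited FPKM per Ensembl gene identifier, and per the labels HISAT2 and featureCounts of Subread are named without versions. The genome build and annotation of the values are not given in the sources used here, so names, exon lengths and coordinates came from GENCODE M21 (GRCm38). No further normalization between libraries is stated. FPKM times exon length gave whole reads within 0.03 for 98.3% of named genes and for every member. These reads gave the depth and a voom alternative.

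Groups came from the labels. The methods of the study name a count model, and the deposited values are FPKM, so limma 3.58.1 in R 4.3.3 (lmFit, eBayes with trend) was fitted to log2(FPKM + 0.1), with a mean of at least 0.5 FPKM over the 6 libraries of a comparison. Calls needed an adjusted p under 0.05, and DEGs also an absolute log2 fold change over 1. Ratios and low genes were compared with exact two-sided permutation tests (Python 3.11.15, scipy 1.17.1). The SFRP2 against NC fit was also run on simulated reads with a fixed, assumed spread. That run checked the code only. Members and gene lists were chosen with earlier results of these data known. All 10 members were named, with Sfrp2, Rab6a, DEGs of the 2 lists (at most 8 per list and comparison), the 2 most abundant genes of each list and the 3 genes nearest to Ptgs2 and to Alox5ap. Outside this rule, Cysltr1 and the 7 genes listed as prostanoid receptors were named after their values were seen. Alternatives were other pseudocounts, filters, scalings and fits, the replicate number as a block, GC and length correction by natural splines (5 degrees of freedom), voom, and each library left out. A planned comparison of the members' protein sequences was not run.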

Additional observations from a re-analysis of the deposited data

How the results depend on the processing

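In RAB6A against NC cells, calls of Ptgir, Alox5 and Alox5ap held in all 17 alternatives, that of Ptgs2 in 16 (not under quantile normalization) and that of Pla2g4a in 6, and 4 to 6 members were called. With voom, SFRP2 against NC cells gave 45 called genes and 2 DEGs where limma gave 0, and leaving out 1 library gave 0 to 1 (1 without NC replicate 1). With a pseudocount of 1 there were 2389 DEGs (3829 with 0.1) in RAB6A against NC cells and 2501 between the siRNA groups (3972 with 0.1). With no filter 26 of 61 tested genes of the wider list were called between the siRNA groups, against 17 of 25 with it. Over all genes the counts were 10684 of 26854 with no filter and 9369 of 12764 with it. The log2 ratio of Ptgs2 to Alox5 in SFRP2 against NC cells ranged from -0.1 to 0.13 with 1 library left out, and turned without SFRP2 replicate 3 or NC replicate 1. Signs of single members also turned. Pla2g4a, called higher in SFRP2 than in RAB6A cells in 16 of 17 alternatives, was -0.07 (adjusted p = 0.35) with GC and length correction. With that correction Ptgir was 0.00 in SFRP2 against NC cells, Pla2g4a 0.12 and Ptgs1 0.27 in RAB6A against NC cells, and Ptgs1 -0.11 between the siRNA groups. Ptgs1 was 0.03 with voom. Ptger4 under quantile normalization was -0.26 in RAB6A against NC cells and 0.16 between the siRNA groups. With 1 library left out, Ptger4 ranged from -0.22 to 0.06 in SFRP2 against NC cells and Ptgs1 from -0.11 to 0.13 in RAB6A against NC cells. The causes were not tested.

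Replicate numbers are shared between groups, but same-numbered libraries did not deviate together (r from -0.0847 to 0.0477 over 12549 genes). Whether they were cultured or prepared together is not known, and these values do not settle it. With the number as a replicate block, 4 members were called in RAB6A against NC cells (5 without), and 0 genes in SFRP2 against NC cells. Low read counts limit Ptger2 and Sfrp2. Sfrp2 had 2 to 4 reads in libraries of at least 32758724 reads, so it was barely detected in any group. Its mean was 0.0213 FPKM in the NC group, 0.0401 in the SFRP2 group and 0.0482 in the RAB6A group. No change of it could be read.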
